A study of Macaca mulatta with 24 samples.

Results

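Filtered-air control cultures of macaque airway epithelium were compared between 2 points of one exposure schedule, in the 8 libraries of 24 in the series that come from the air arms at 1 day and at recovery. The cells were primary epithelial cells from the trachea and bronchi of 4 adult female rhesus macaques (S1 to S4; 5463, 2930, 2238 and 1128 days old; 5.59, 7.17, 4.56 and 3.18 kg), cultured on porous inserts with their upper side in air (an air-liquid interface), in BEGM and DMEM medium with retinoic acid. The 1-day cultures had 1 session of 6 hours in filtered air. The recovery cultures had 5 daily sessions of the same length and then 7 days of rest. The series also holds air cultures after 5 sessions without the rest, and wood smoke cultures of the same 4 animals at the same 3 times. The number of air sessions, the rest week and the added time at the air-liquid interface changed together between the groups compared, so they cannot be told apart. Each animal gave 1 library per group, and the libraries were compared within the animal. A gene entered the comparison with a value of 10 or more in at least 4 of the 8 libraries, which 13244 of the 35432 genes in the deposited table had, 11982 of them with a symbol.

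An airway culture at an air-liquid interface starts as a layer of basal cells, which carry keratin 5 and TP63 and anchor to the membrane through hemidesmosomes. Over weeks the daughters of basal cells take secretory or multiciliated fates. Notch signalling favours the secretory fate, and the multiciliated fate runs through a deuterosomal stage in which centrioles are copied in large numbers before the axonemes grow. Retinoic acid is needed for this mucociliary program, is made from retinol by dehydrogenases, and is broken down by the CYP26 enzymes, whose genes it induces. Where retinoic acid is short, the same epithelium turns squamous.

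Of the markers of other cell types, those of ionocytes (3 genes) summed to at most 2.18 normalized counts, and those of chondrocytes and of alveolar cells (2 genes each, SFTPC and AGER for the latter) to at most 1.13 and 5.07. Sums were higher for markers of endothelium (80.7 to 190), smooth muscle (26.1 to 119), tuft cells (44.4 to 177) and leukocytes (43.5 to 81.2). Those of fibroblasts were the highest of these (531 to 692), nearly all from PDGFRA. The surfactant gene SFTPA1 reached 948. GRP, CALCA, LUM, CDH5, COL2A1 and SFTPC were listed at 0 in all 8 libraries. Genes that most cells use were also listed at or near 0, with HSPE1 at 0 in 7 of the 8, RPSA at 0 to 1.09 and LDHB at 0 to 6.73, so a listed 0 need not mean that no RNA was there. Basal, secretory, goblet and ciliated markers were all present, the first summing to 42913 to 60554 at 1 day and to 36684 to 47435 at recovery. KRT14, KRT15 and MUC5AC had no match in the table. Normalized totals were 11.8 to 12.6 M per library at 1 day and 12.5 to 13.4 M at recovery. The share of the 13 mitochondrially encoded genes was 5.71 to 8.82% at 1 day and 3.81 to 6.96% at recovery, lower at recovery in 4 of 4 animals (exact sign-flip test, two-sided p = 0.125, the smallest 4 animals allow). The 1-day library of S1 had the largest mitochondrial share and the lowest sum of ciliated markers (3588 against 8601 to 18926 in the other 1-day air libraries), and the 1-day smoke library of S1 had a like sum (3595). The 10 most abundant genes held 15.0% of the 1-day air library of S1, against 18.4 to 21.8% in the other libraries of the 8. In the 1-day smoke library of S1 they held 20.7%. Correlations with the other libraries had a median of 0.934 for the 1-day library of S1 and of 0.937 for the recovery library of S2, the lowest of the 8.

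Between 1 day and recovery 3690 of the 13244 genes passed (27.9% called at an adjusted p under 0.05 in limma, with the animal as a block). Of these 1905 were higher at recovery (14.4%) and 1785 were lower (13.5%). The share called in each gene list below is to be read against the 27.9% of all genes. Without S3 2160 genes passed and without S4 2100. The change, taken on the log2(value + 1) scale, reached 1 or more in 498 called genes, 221 of them higher and 277 lower. In 3636 of the 3690 called genes all 4 animals moved the same way. The 4 recovery libraries lay wholly above the 4 1-day libraries for 1094 genes (8.26%) and wholly below them for 1132 (8.55%). With library totals set equal in place of the deposited scaling, 34.3% of the called genes were higher, against 51.6% with the deposited scaling. Only 35 genes passed the filter through 1 group alone, 29 of them through the 1-day libraries. Near the threshold, RTL5, with values from 4.31 to 14.1, was just inside and ITGA9, with values from 0 to 41.4, just outside.

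**Figure D1:**
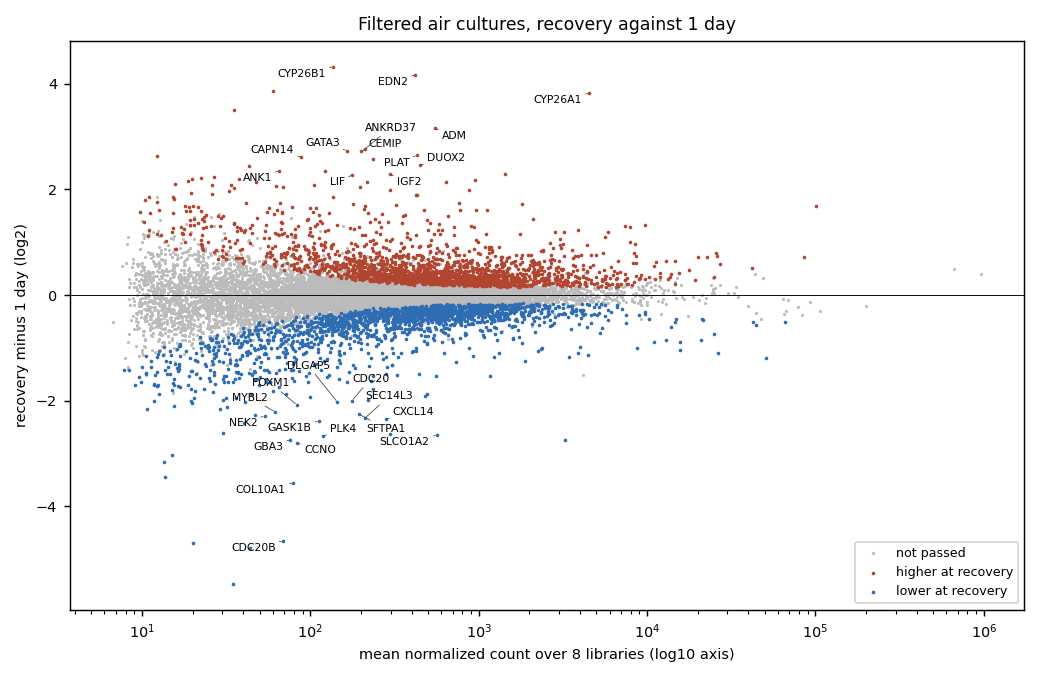
Change between 1 day and recovery in filtered air, per gene. The x axis gives the mean normalized count over the 8 libraries (log10 axis) and the y axis the change (recovery minus 1 day, log2). Genes that passed (3690 of 13244) are coloured by direction, and names are given for those of the text among the 15 largest rises and falls with a symbol, a mean of 50 or more and the same direction in all 4 animals. CYP26A1 stands out as a large rise at a high level, and genes of cell division and centriole copying make up many of the largest falls. Of these, CDC20B passed the filter only through the 1-day libraries and had to differ.

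Genes of retinoic acid breakdown were among the largest rises. CYP26A1, which oxidises retinoic acid to inactive products, stood at 535, 1007, 597 and 350 normalized counts in S1 to S4 at 1 day and at 5890, 12072, 8064 and 7887 at recovery. The groups did not come near each other (log2 change 3.82 ± 0.15 SE, limma adjusted p = 6.04e-05). CYP26B1, a second enzyme with the same action, was at 10.3, 13.9, 10.2 and 13.8 at 1 day and at 194, 250, 313 and 291 at recovery (log2 change 4.32 ± 0.18). RARB, a retinoic acid receptor whose own promoter answers to retinoic acid, was at 267 to 369 at 1 day and at 645 to 1007 at recovery (log2 change 1.34 ± 0.09). For CYP26B1 and RARB too, the lowest recovery library was above the highest at 1 day.

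The enzymes that make retinoic acid did not move together. DHRS9, a retinol dehydrogenase, was at 2904, 6599, 5698 and 6211 at 1 day and at 6715, 13021, 11071 and 11569 at recovery (log2 change 1.01 ± 0.07). ALDH1A3, which oxidises retinaldehyde to retinoic acid, rose as well (log2 change 0.75 ± 0.07). ALDH1A1, which performs the same step, fell from 18368 to 40549 at 1 day to 11433 to 23256 at recovery (log2 change -0.74 ± 0.10). Of the 26 listed genes of retinoic acid metabolism and response 18 were tested, 11 were higher at recovery and 2 were lower (72.2% called). Their median change was 0.49, against 0.01 over all genes tested, and it lay between 0.53 and 0.61 in each single animal.

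**Figure D2:**
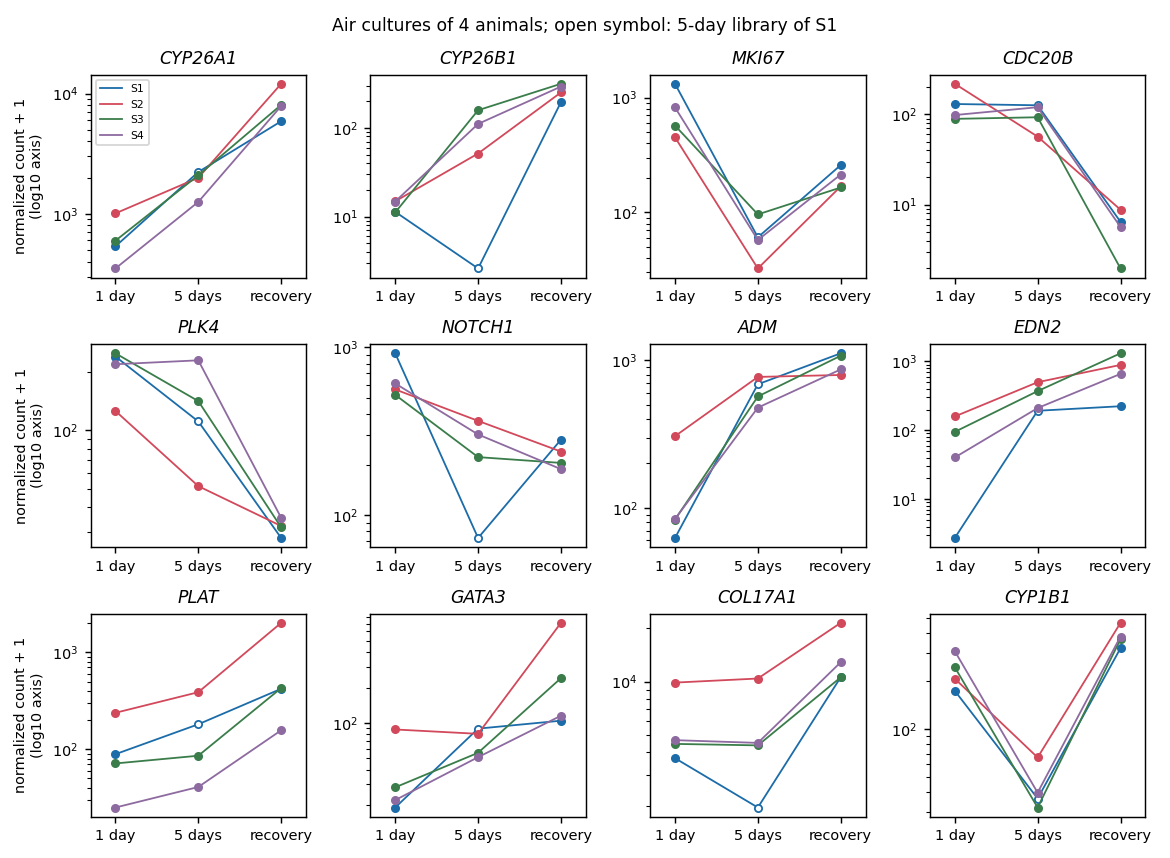
Normalized counts of 12 genes in the air cultures at 1 day, 5 days and recovery, on a log10 axis of value + 1, with 1 line per animal. The open symbol is the 5-day air library of S1, which stood apart and was not in the comparison. CYP26A1, CYP26B1, ADM, EDN2, PLAT and GATA3 end above where they began in all 4 animals, and CDC20B, PLK4, MKI67 and NOTCH1 end below. For CDC20B, which passed the filter only through the 1-day libraries, this fall was fixed by the filter.

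Genes of cell division fell. MKI67, the proliferation antigen, was at 1317, 450, 570 and 820 normalized counts at 1 day and at 257, 168, 164 and 213 at recovery (log2 change -1.88 ± 0.14, limma adjusted p = 0.000299). The highest recovery library was below the lowest 1-day library. TOP2A, the topoisomerase that untangles replicated DNA, went from 511 to 917 down to 189 to 209 (log2 change -1.90 ± 0.15). The same pattern without overlap held for CDC20, the activator of the anaphase-promoting complex, from 194 to 382 down to 65.5 to 74.9. FOXM1 and MYBL2, transcription factors of the late cell cycle, had log2 changes of -2.08 and -2.21, the kinase NEK2 -2.29 and the spindle protein DLGAP5 -2.02, all past the test.

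Of 32 listed genes of mitosis and chromosome segregation 30 were tested and 29 were lower at recovery (96.7% called), with a median change of -1.40. The member that did not pass was PTTG1, securin, at 109 to 228 at 1 day and 113 to 243 at recovery (log2 change -0.12 ± 0.20). Genes of DNA replication moved less: 15 of 30 were lower, none were higher (50% called), and the median was -0.61. It was -0.91 in S1 and -0.11 in S2. RRM2, the ribonucleotide reductase subunit, was among those that fell (log2 change -1.34 ± 0.13). In such bulk libraries fewer cells of a type and less RNA per cell cannot be told apart. Of 19 tested p53 targets 4 were higher and 4 lower (42.1% called). CDKN1A, the p21 inhibitor of cyclin-dependent kinases, was at 986 to 1774 at 1 day and at 1200 to 2225 at recovery, with overlap between the groups but a rise in each animal (log2 change 0.35 ± 0.06). BTG2, an antiproliferative p53 target, went the other way, from 822 to 1107 down to 471 to 505. Without S3 the p53 counts were 2 and 2, and without S4 they were 3 and 1.

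Genes of the deuterosomal stage of multiciliated cell formation were among the largest falls. CDC20B, whose protein is part of the deuterosome, was at 129, 218, 88.3 and 97.4 at 1 day and at 5.45, 7.78, 0.962 and 4.65 at recovery (log2 change -4.65 ± 0.28). FOXN4, a transcription factor of this stage, was at 25.9, 23.2, 68.8 and 40.7 and then at 0, 1.11, 0.962 and 0. CCNO, a cyclin needed for centriole amplification, was at 95.7 to 225 at 1 day and at 6.54 to 37.8 at recovery (log2 change -2.80 ± 0.34). PLK4, the kinase that starts each new centriole, was at 124 to 247 and then at 26.8 to 34.3 (log2 change -2.67 ± 0.20). MCIDAS, an upstream regulator of the multiciliated fate, was at 21.3 to 32.8 and then at 3.27 to 6.68 (log2 change -2.10 ± 0.31). CDC20B, FOXN4 and MCIDAS passed the filter only through the 1-day libraries, so they had to differ and their values are a description. CCNO and PLK4 also had recovery libraries at 10 or more, and their groups did not overlap. As genes of cell division fell too, whether PLK4 fell with them or with the deuterosomal stage was not tested.

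FOXJ1, the factor that drives axoneme genes later in the same cells, showed no such fall. It was at 1223, 2751, 5554 and 3052 at 1 day and at 1926, 2086, 4629 and 3796 at recovery, higher in S1 and S4 and lower in S2 and S3 (log2 change 0.08 ± 0.16, limma adjusted p = 0.758). Of the 21 listed regulators of multiciliogenesis 20 were tested, 9 were lower and 1 was higher at recovery (50% called). As 3 of the 20 passed the filter through 1 group alone, CDC20B and FOXN4 among them, the 9 include genes that had to differ. Among 24 axonemal dyneins and assembly factors, which power ciliary beating, 3 were higher and none lower (12.5% called). Of 36 genes of cilium structure 4 were higher and none lower (11.1% called), and of 29 genes of intraflagellar transport, the carriage of cargo along the cilium, 2 were higher and 1 was lower (10.3%). The shares of these 3 cilium lists lie below the 27.9% of all genes. Without S4 the counts of higher dynein and structure genes fell to 1 and 0.

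The cilium genes differed widely between animals. The median change of the dynein list was 1.05 in S1, -0.17 in S2, -0.16 in S3 and 0.40 in S4, and that of the structural list 1.10, -0.19, -0.08 and 0.44. Over all 4 animals the medians were 0.30 and 0.34, and without S1 they were 0.07 and 0.09. The 1-day cultures of S1 had the lowest ciliated marker sum in air and in smoke, and the part of the 1-day air library alone in these medians was not tested. DNAI1, an outer dynein arm chain, was higher in every animal, at 121, 421, 714 and 343 at 1 day and at 353, 667, 893 and 592 at recovery (log2 change 0.83 ± 0.17). Its call was lost without the animal block, as were those of many other named genes (61 in all). It was also lost with the animal as a random block and without the trend. DNAH5, the outer arm motor, was at 1074, 2102, 6406 and 3458 and then at 1999, 1110, 3747 and 3392. It was higher in S1 only (log2 change -0.21 ± 0.26), and without S1 the fall passed (log2 change -0.57, limma adjusted p = 0.0282).

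**Figure D3:**
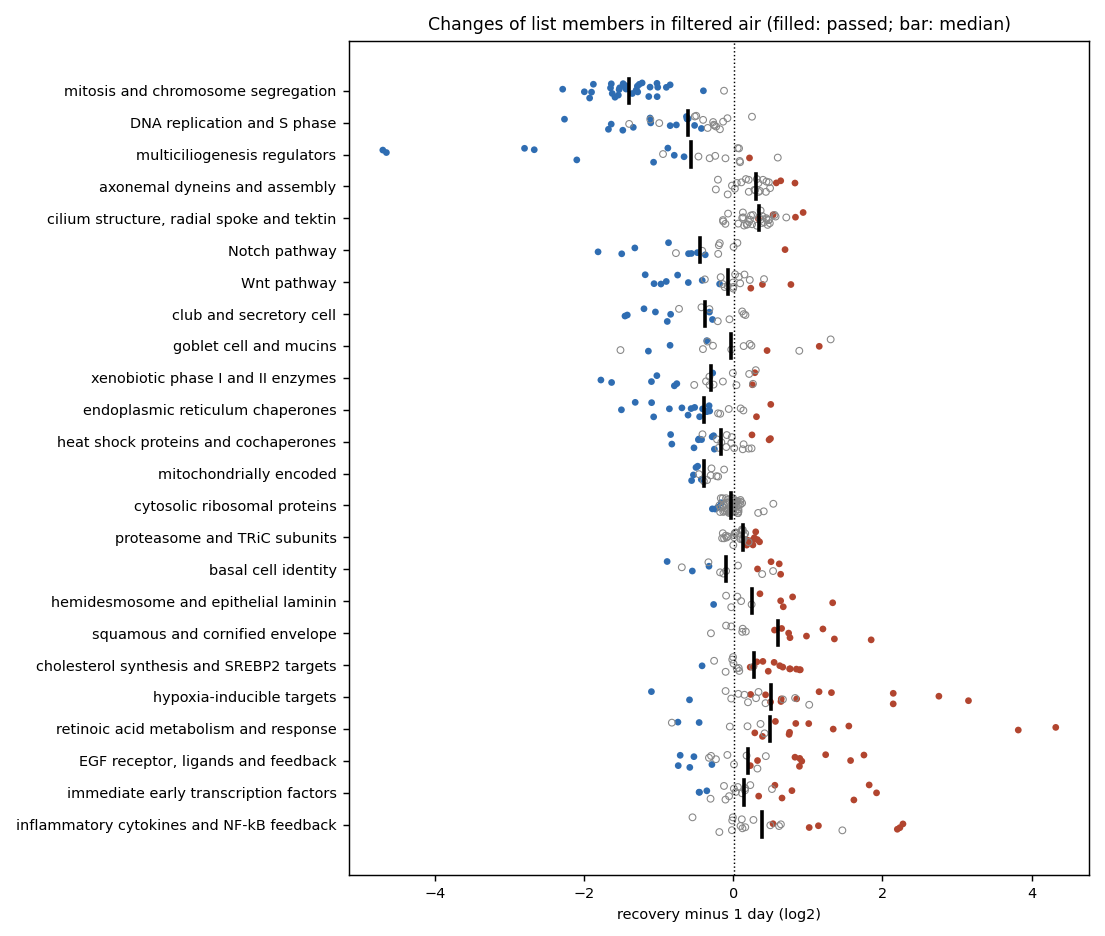
Changes of single genes in 24 of the gene lists (points, recovery minus 1 day, log2), filled where the gene passed and open where it did not. The vertical bars are list medians and the dotted line is the median of all genes tested. Mitosis genes lie almost wholly on the left, and squamous, hypoxia and retinoic acid genes mostly on the right.

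Several Notch genes were lower at recovery. NOTCH1 was at 922, 561, 521 and 609 normalized counts at 1 day and at 281, 239, 204 and 187 at recovery (log2 change -1.50 ± 0.10, limma adjusted p = 0.000219). Every recovery library was below every 1-day library. NOTCH3, the receptor that primes basal cells towards the luminal fates, went from 1049 to 1531 down to 801 to 925. The glycosyltransferase LFNG, which tunes the answer of Notch receptors to their ligands, fell by 1.32 on the log2 scale. HES1, the repressor that Notch induces, went from 523 to 678 down to 269 to 398. In all, 8 of 16 tested genes of the pathway were lower and 1 was higher (56.2% called), with a median of -0.45 (5 lower without S4). Of 25 Wnt pathway genes 8 were lower and 3 higher (44% called), but without S2 or S3 only 3 and 2 were lower. WNT4, a ligand, fell by 1.06 on the log2 scale and the co-receptor gene LRP5 by 0.42. The receptors FZD8 and FZD6 rose (log2 change 0.77 ± 0.08 and 0.39 ± 0.06).

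Secretory genes moved down where they moved at all. Of 16 tested genes of club and secretory cells 8 were lower and none were higher (50% called). Their median was -0.37 (0.17 to 0.75 below 0 in the 4 animals). VMO1, a secreted protein of the airway surface, was among the most abundant, at 84312, 57433, 74493 and 55794 at 1 day and at 58323, 10981, 37600 and 30172 at recovery (log2 change -1.20 ± 0.27). PIGR, the receptor that carries IgA to the lumen, went from 37826, 4308, 8004 and 4649 to 23633, 1662, 5464 and 2423, lower in each animal within a wide spread between animals. The secretoglobin SCGB2A1 fell by 1.42 on the log2 scale. SCGB1A1, the classical club cell protein, was near the threshold of the filter in both groups, at 11.6 to 27.6 and at 3.43 to 32.1, and did not pass (log2 change -0.43 ± 0.36). SCGB3A1 did not pass either (it passed without S4), at 404, 20.5, 40.1 and 2.89 at 1 day and at 160, 4.54, 26.5 and 6.54 at recovery.

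The goblet cell list showed no common direction, with 2 of 15 higher and 3 lower (33.3% called). CLCA1, a secreted goblet cell protein, was at 8382, 3948, 5308 and 6537 at 1 day and at 4847, 1762, 2242 and 2548 at recovery (log2 change -1.14 ± 0.09). MUC5B, the gel-forming mucin of submucosal glands and secretory cells, varied widely. It was at 5700, 158, 2283 and 8492 at 1 day and at 8517, 1.11, 2858 and 5164 at recovery, up in S1 and S3 and down in S2 and S4 (log2 change -1.51 ± 1.00, limma adjusted p = 0.297). GCNT3 and GALNT12, enzymes that build mucin glycans, both rose, by 1.15 ± 0.15 and 0.45 ± 0.06 on the log2 scale.

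Enzymes of xenobiotic metabolism were lower in 7 of 20 tested genes and higher in 2 (45% called). FMO2, a flavin monooxygenase, was at 2260, 967, 2068 and 1811 at 1 day and at 770, 363, 1438 and 966 at recovery, lower in each animal. The carboxylesterase CES1 and the epoxide hydrolase EPHX1 fell by 1.03 and 0.79 on the log2 scale. Targets of the aryl hydrocarbon receptor split: ALDH3A1 fell from 18046 to 58186 at 1 day to 8834 to 19569 at recovery, while CYP1B1 rose from 173, 206, 244 and 308 to 322, 465, 367 and 381 (log2 change 0.74 ± 0.14). TIPARP, another target, rose by 0.72 ± 0.05. The call of CYP1B1 was lost without the animal block and with all 24 libraries in the fit. CYP1A1 was under 2 normalized counts in all 8 libraries and was not tested. Of 26 NRF2 targets 9 were higher and 3 lower (46.2% called). TXNRD1, thioredoxin reductase, was at 790 to 870 at 1 day and at 1280 to 1746 at recovery, and PGD and GCLM, enzymes of NADPH and glutathione supply, rose by 0.56 ± 0.05 and 0.46 ± 0.05. MT2A, a metal-binding metallothionein, rose from 685, 603, 263 and 422 to 1750, 1724, 1084 and 1202, without overlap (log2 change 1.60 ± 0.11).

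Basal cell genes did not move as 1 group, with 4 of 15 higher, 3 lower (46.7% called) and a median of -0.10. KRT5, the basal keratin, was at 57575, 47729, 51220 and 40569 at 1 day and at 44317, 33427, 36078 and 42334 at recovery (log2 change -0.33 ± 0.12, limma adjusted p = 0.0745), and it was lower in 3 of 4 animals and passed without S4. TP63 went from 671 to 960 down to 586 to 669 (log2 change -0.33 ± 0.07), a call that was lost without S4. NGFR, a surface receptor of basal cells, went the other way, from 864 to 1516 up to 1348 to 2208, and S100A2, a calcium-binding protein of the basal layer, rose by 0.62 ± 0.10. IL33, an alarmin stored in basal cell nuclei, did not pass (log2 change -0.18 ± 0.07). With equal library totals 7 basal genes in place of 3 were lower.

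Many genes of basal anchorage and of squamous differentiation were higher at recovery. COL17A1, the transmembrane collagen of hemidesmosomes, was at 3711, 9874, 4464 and 4686 at 1 day and at 10594, 21406, 10571 and 12858 at recovery (log2 change 1.33 ± 0.08, limma adjusted p = 0.000202). The epithelial laminin chain gene LAMA3 rose by 0.67 ± 0.07. Of 11 hemidesmosome genes 5 were higher and 1 lower (54.5% called). Of 34 listed squamous genes only 23 had a match in the table, and 9 of those were under the filter. Of the 14 tested genes 8 were higher and none were lower (57.1% called), so the result covers only a part of the list. The list median was 0.60, and between 0.30 and 0.81 in the single animals. TGM1, the transglutaminase that crosslinks the cornified envelope, was at 134, 30.6, 59.4 and 26.2 and then at 246, 75.5, 162 and 62.3. SCEL, sciellin of the same envelope, was at 1406 to 2198 and then at 2890 to 4820, without overlap. SPRR3, a small proline-rich envelope protein, was scarce, at 21.0, 13.9, 3.13 and 9.43 and then at 52.1, 41.4, 11.5 and 20.5.

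Junction genes were called about as often as all genes (27.9%). The desmosomal cadherins DSG2, DSG3 and DSC2 rose by 0.74 ± 0.08, 0.55 ± 0.11 and 0.65 ± 0.09, and the desmosome list as a whole had 3 of 11 higher and 1 lower (36.4% called). Among 20 tight junction genes 5 were higher and 1 lower (30.0% called), with 3 higher without S3. TJP1, the scaffold ZO-1, was at 1704 to 1972 at 1 day and at 2377 to 3299 at recovery, and the claudin CLDN7 rose from 805, 1194, 1159 and 1358 to 1266, 1971, 1579 and 1803. Of 27 genes of the actin cytoskeleton 5 were higher and 6 lower (40.7% called), and without S3 these counts were 2 and 3. The membrane linker gene EZR rose (0.71 ± 0.07) and the crosslinker FLNA was lower (-0.40 ± 0.05).

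Matrix genes were split, with 9 of 37 higher and 5 lower (37.8% called). PLAT, tissue plasminogen activator, was at 87.8, 237, 70.3 and 24.0 at 1 day and at 420, 2023, 428 and 156 at recovery (log2 change 2.64 ± 0.14). Each animal rose, with S2 the highest at both times. PLAUR, the urokinase receptor, rose by 1.23 ± 0.12, and the metalloproteinases MMP13 and MMP28 by 1.38 ± 0.18 and 1.38 ± 0.14. The summed level of 5 fibroblast markers was 531 to 650 at 1 day and 636 to 692 at recovery, nearly all of it from PDGFRA, and LUM was at 0. The other tested markers of the list, the collagen genes COL1A1 and COL3A1, were lower in all 4 animals (log2 change -1.36 ± 0.33, which passed but not without S1 or S4, and -0.92 ± 0.33, which did not pass), and the median of the 3 was -0.92. The part of such cells in the matrix result was not tested.

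Many hypoxia-inducible genes were higher at recovery. ADM, the vasodilator peptide adrenomedullin, was at 61.4, 305, 82.2 and 83.0 normalized counts at 1 day and at 1118, 796, 1076 and 869 at recovery (log2 change 3.15 ± 0.39, limma adjusted p = 0.00184). ANKRD37, a small ankyrin protein induced by HIF, was at 14.0, 115, 87.6 and 41.3 and then at 229, 495, 412 and 288. ANGPTL4, an inhibitor of lipoprotein lipase, was at 161 to 369 and then at 728 to 1604. All 3 genes stayed apart between the groups. VEGFA, the endothelial growth factor, rose by 1.15 ± 0.10 and SLC2A3, a glucose transporter, by 2.14 ± 0.13. Of 25 tested genes of the list 12 were higher and 2 lower (56% called), with a median of 0.50. The list median was 0.91 in S1, 0.42 in S3, 0.53 in S4 and 0.00 in S2, the animal whose 1-day library had the highest ADM, ANKRD37 and SLC2A3 of its group. Of 17 glycolytic enzymes 5 were higher and 1 lower (35.3% called), and 1 was higher without S3 or without S4. ALDOC, an aldolase, rose by 0.75 ± 0.15.

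Most genes of cholesterol synthesis were higher at recovery. HMGCS1, the synthase at the start of the pathway, was at 1464, 3716, 1872 and 1879 at 1 day and at 3590, 5205, 3478 and 3466 at recovery (log2 change 0.89 ± 0.11). SQLE, squalene epoxidase, was at 729 to 1228 and then at 1360 to 1916. Of 23 tested genes 13 were higher and 1 was lower (60.9% called), with a median of 0.28. Of 26 genes of fatty acid synthesis and storage 2 were higher and 6 lower (30.8% called), but 1 was lower without S3 or without S4.

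Genes of growth factor signalling and of the early transcriptional response were mixed. FOS was at 320, 545, 373 and 309 at 1 day and at 1136, 1104, 1208 and 1180 at recovery (log2 change 1.62 ± 0.14), without overlap. EGR1, the zinc finger factor often induced with it, went the other way, from 916 to 1205 down to 599 to 1025 (log2 change -0.46 ± 0.07). EGR2 was scarce, at 3.23, 9.53, 5.85 and 7.48 and then at 19.4, 28.1, 27.9 and 22.6. It passed the filter only through the recovery libraries, so it had to differ. Of 22 tested early factors 7 were higher and 3 lower (45.5% called). In the EGF receptor list 9 of 22 were higher and 5 lower (63.6% called). ERRFI1, a feedback inhibitor of the receptor, rose from 310 to 391 up to 934 to 1364 (log2 change 1.75 ± 0.07, limma adjusted p = 6.04e-05). AREG, an EGF receptor ligand, was at 35.9 to 63.8 and then at 83.6 to 237, and DUSP4, a phosphatase of the downstream kinases, rose by 1.24 ± 0.09. The receptor EGFR fell from 1912 to 1960 to between 1217 and 1364.

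Of 20 tested cytokine and NF-kB genes 6 were higher and none lower (30.0% called, against 27.9% of all genes). LIF, a cytokine of the IL-6 family, was at 50.6, 65.0, 46.7 and 47.1 and then at 613, 260, 214 and 123 (log2 change 2.27 ± 0.31). IL1A rose from 0.726 to 24.1 up to 22.3 to 76.2, and IL1RN, the antagonist of its receptor, by 1.14 ± 0.08. CXCL8, the neutrophil chemokine, did not pass, at 172, 1.86, 18.8 and 6.52 and then at 338, 31.5, 36.2 and 9.32 (limma adjusted p = 0.0557). Of 30 TGF-beta and BMP genes 9 were higher and 2 lower (36.7% called), with LTBP1, which holds latent TGF-beta in the matrix, at 1.05 ± 0.14. Interferon-stimulated genes were split, with 4 of 24 higher and 4 lower (33.3% called), and without S3 these counts were 2 and 2. MX1 and MX2, dynamin-like antiviral proteins, rose by 0.79 ± 0.13 and 1.36 ± 0.14, and OAS3, an oligoadenylate synthetase, fell by 0.53.

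Most chaperone genes of the endoplasmic reticulum were lower at recovery. HSPA5, the chaperone BiP, was at 18501, 17010, 13813 and 17844 at 1 day and at 13910, 9668, 10147 and 10561 at recovery (log2 change -0.61 ± 0.09). CRELD2, a disulfide isomerase-like protein, was at 349 to 506 and then at 117 to 207 (log2 change -1.50 ± 0.15), and HYOU1, an exchange factor of BiP, fell by 0.69 on the log2 scale. Of 22 tested genes 15 were lower and 2 higher (77.3% called), and the median was -0.39, between -0.23 and -0.47 in the single animals. Cytosolic heat shock genes were lower in 9 of 25 and higher in 3 (48% called). HSP90AA1 went from 21830 to 35193 down to 13243 to 17020, and HSPB1 from 1767 to 2416 down to 1113 to 1224. DNAJB1, an HSP70 cochaperone, went the other way, from 2984 to 4391 up to 4398 to 5785. Of 33 proteasome and chaperonin genes 12 were higher and none lower (36.4% called), with small changes (median 0.13). In this list 6 were higher without S1, S3 or S4, and 6 with equal library totals.

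Genes of RNA splicing, translation and respiration showed small or mixed changes. SRSF5, a splicing factor, fell from 1566 to 1773 at 1 day to 694 to 909 at recovery (log2 change -1.18 ± 0.07, limma adjusted p = 0.000202). SRSF6 and the initiation factor EIF4A2 fell by 0.59 and 0.64. In all, 13 of 34 genes of the splicing list were lower and 6 higher (55.9% called). Of 56 cytosolic ribosomal protein genes 4 were lower and none higher (7.14% called), with 8 lower under equal library totals. Of 43 nuclear genes of the respiratory chain 9 were lower and none higher (20.9% called, below the 27.9% of all genes). When any 1 animal was left out, 2 or 3 were lower. All 13 mitochondrially encoded genes had changes below 0 and 5 passed (38.5% called, 1 gene without S3), with a list median of -0.93 in S4 and -0.09 in S2. ND1, a complex I subunit, went from 71075, 45981, 42659 and 52215 to 50598, 34836, 33634 and 26047. In the ATF4 list 7 of 20 were higher and 4 lower (55% called), and without S3 these counts were 4 and 2. PSAT1, an enzyme of serine synthesis, rose from 134, 110, 141 and 46.1 to 362, 375, 305 and 85.4, and SLC7A5, a transporter of large amino acids, by 1.16 ± 0.10.

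Of 20 tested clock genes 6 were higher and 2 lower (40% called), with 3 higher without S3. PER3, a period gene, was at 145, 146, 148 and 135 at 1 day and at 239, 341, 317 and 234 at recovery (log2 change 0.96 ± 0.11), and BHLHE40, a repressor of the clock, rose by 1.11 ± 0.08. NPAS2, a partner of BMAL1, fell from 581 to 798 to between 330 and 463. NR1D1 and DBP, which are both driven by the core clock, did not pass (log2 change 0.23 ± 0.16 and -0.02 ± 0.17). Both were higher at recovery in S2 and S3 and lower in S1 and S4. The hour of harvest is not given in the sources used here. Of 19 glucocorticoid targets 6 were higher and 2 lower (42.1% called). TSC22D3, the glucocorticoid-induced leucine zipper, was at 690 to 873 and then at 1090 to 2023.

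Among transcription factors of the airway epithelium 3 of 20 were higher and 6 lower (45% called), with 2 lower without S3 or without S4. SOX9, a factor of progenitor and gland cells, was at 132, 401, 288 and 140 and then at 502, 951, 939 and 423 (log2 change 1.62 ± 0.11). TFCP2L1, a grainyhead-related factor, was at 1766 to 2118 and then at 3417 to 5506 (log2 change 1.19 ± 0.08). ELF3, an epithelial ETS factor, rose by 0.42 ± 0.06, and GRHL2, a regulator of epithelial junctions, fell by 0.39. GATA3, a zinc finger factor outside that list, was at 18.1, 87.0, 27.3 and 21.1 and then at 104, 710, 240 and 114 (log2 change 2.73 ± 0.17). Of 21 airway channels and transporters 5 were higher and 3 lower (38.1% called), with 3 higher without S3 or without S4. TMPRSS2, a surface serine protease, rose from 2416 to 4564 up to 6435 to 9531, and KCNJ16, a potassium channel, fell from 580 to 1355 to between 232 and 617.

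The remaining large rises were in genes of the surface and of secreted factors. EDN2, a vasoconstrictor peptide, was at 1.73, 157, 93.7 and 39.2 at 1 day and at 222, 887, 1309 and 657 at recovery (log2 change 4.17 ± 0.51). S1 contributed the largest single change, from the lowest 1-day value. DUOX2, an oxidase that supplies hydrogen peroxide at the airway surface, was at 232, 161, 49.2 and 98.1 and then at 1526, 714, 332 and 466. CEMIP, a protein of hyaluronan breakdown, rose from 33.5 to 56.6 up to 171 to 597, and IGF2, a growth factor, from 27.1 to 141 up to 205 to 660. The calpain CAPN14 and the ankyrin ANK1 rose by 2.61 ± 0.37 and 2.35 ± 0.37, and the groups overlapped for CAPN14 but not for ANK1.

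Large falls outside the cell cycle and the deuterosome often followed the animal. COL10A1, a short-chain collagen, was at 7.75, 43.5, 38.3 and 453 at 1 day and at 1.09, 0, 0.963 and 88.3 at recovery. SLCO1A2, an organic anion transporter, was at 493, 304, 221 and 2433 and then at 154, 15.4, 22.3 and 879. SFTPA1, a surfactant protein, was at 118, 2.69, 232 and 948 and then at 12.0, 0.984, 30.7 and 224. In all 3 genes S4 kept the highest level at both times, and each animal fell. CXCL14, an epithelial chemokine, was at 969, 54.6, 632 and 254 and then at 83.5, 10.9, 159 and 79.4 (log2 change -2.35 ± 0.27). GASK1B, a Golgi-associated protein, and GBA3, a cytosolic glucosidase, both fell, with log2 changes of -2.38 and -2.74. SEC14L3, a lipid-binding protein, fell by 2.33 on the log2 scale, a call that was lost without S3.

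The 5-day air cultures, which had the sessions but not the rest, are described by the values of single genes, without a test. In them the 5-day library of S1 stood apart from all others. CYP26A1 was at 2227, 1994, 2091 and 1255 at 5 days, between the 1-day and recovery levels in each animal. ADM, at 478 to 772, and ANGPTL4, at 460 to 892, were likewise above every 1-day library by 5 days. MKI67 was at 59.7, 31.5, 95.0 and 56.5 at 5 days, below both other times in each animal. Not all genes of cell division followed it. TOP2A was at 388, 71.4, 295 and 299 and CDC20 at 286, 21.1, 131 and 161. Both were above the recovery library of the same animal in S1, S3 and S4 and below it in S2. FOXM1 was at 42.0, 5.75, 35.9 and 24.5, above its recovery library in S1 and S3 and below it in S2 and, slightly, in S4. CDC20B, by contrast, was still at 55.7 to 125 at 5 days. CYP1B1 was at 31.0 to 65.1, PER3 at 8.31 to 70.0 and TFCP2L1 at 649 to 1656, each below both its 1-day and its recovery range. HSPA5 was at 16657 to 26334.

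**Figure D4:**
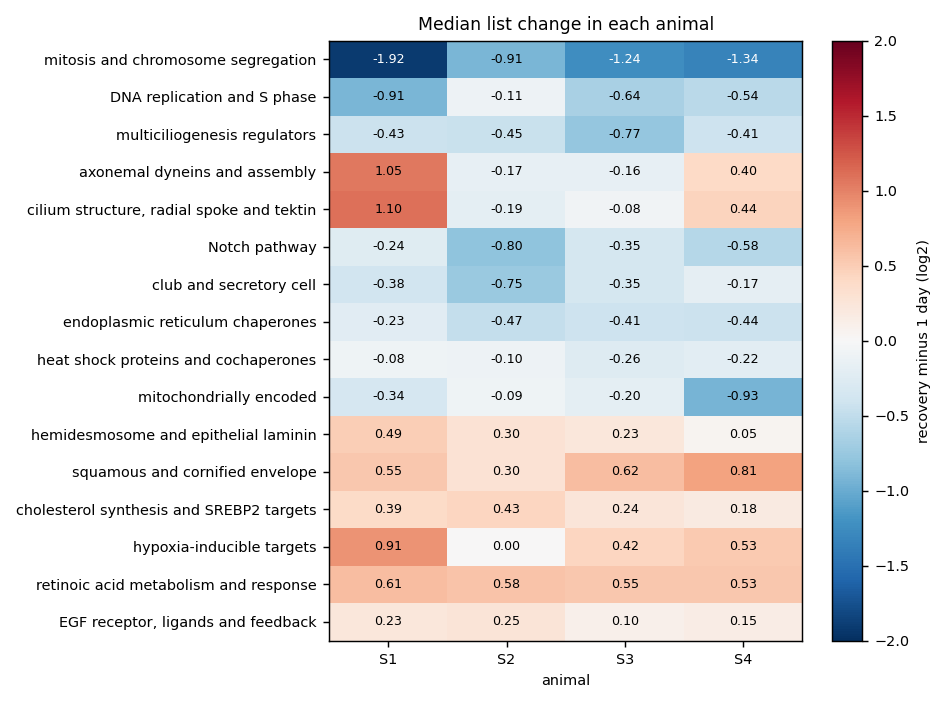
Median change of 16 gene lists in each animal (recovery minus 1 day, log2). Mitosis and endoplasmic reticulum lists are below 0 in all 4 animals and retinoic acid and squamous lists above 0 in all 4, while the dynein and cilium structure lists are near 1 in S1 and below 0 in S2 and S3.

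The smoke cultures of the same animals over the same interval, which share no library with the air cultures, were tested in the same way. In them 3570 of 13244 genes passed (27.0% called), 1836 higher at recovery (13.9%) and 1734 lower (13.1%). Without S3 or S4 1128 and 1191 passed. Of the 1905 genes that rose in air 838 also rose in smoke (44.0% of the air genes and 45.6% of the smoke genes), and of the 1785 that fell in air 881 fell in smoke (49.4% and 50.8%). The change of ADM was 3.15 in air and 3.10 in smoke, that of DHRS9 1.01 and 1.01, and that of NOTCH1 -1.50 and -1.59. That of CDC20B was -4.65 and -4.52, but this gene passed the filter only through the 1-day air libraries, so its fall in air was fixed by the filter.

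The difference of the 2 changes, tested over all 16 libraries with the animal as a block, passed for 1228 genes (9.27%), of which 507 had the higher change in smoke (3.83%) and 721 the lower (5.44%). Without S2, S3 or S4 575, 201 and 259 passed. CYP26A1 rose by 3.82 in air and by 1.75 in smoke, where it was at 490 to 1306 at 1 day and at 1971 to 4055 at recovery (difference -2.07 ± 0.18, limma adjusted p = 3.78e-05). RARB, which rose by 1.34 in air, had a change of -0.12 in smoke (difference -1.46). CYP1B1, a target of the receptor that smoke components bind, fell in smoke, from 1081 to 2335 at 1 day to 291 to 627 at recovery (difference -2.75). EDN2 and GATA3 also had smaller changes in smoke, with differences of -2.58 and -2.31. TFCP2L1 was lower at recovery than at 1 day in smoke (-0.37 against 1.19 in air). Of the genes with the higher change in smoke, TMEM26, a membrane protein, was at 80.6 to 338 and then 44.4 to 202 in air and had a change of 1.48 in smoke (difference 1.99), and CRELD2 fell in air but stood at -0.09 in smoke (difference 1.41). In the endoplasmic reticulum list 12 of 22 genes had the higher change in smoke and none the lower, and the smoke median was 0.01 against -0.39 in air. Of 11 hemidesmosome genes 8 had the lower change in smoke, and of 14 tested squamous genes 8. For the mitosis list the medians were -1.40 in air and -1.88 in smoke, and 2 of 30 genes passed the test of the difference.

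**Figure D5:**
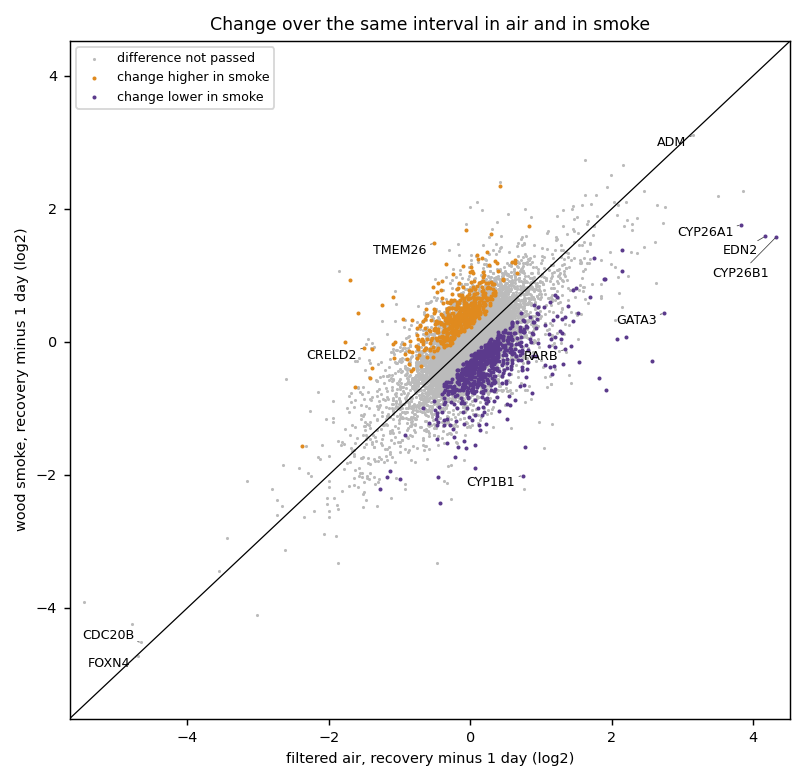
Change between 1 day and recovery in filtered air (x axis) and in wood smoke (y axis), log2, for the 13244 genes tested. Genes that passed the test of the difference (1228) are coloured, and the line marks equal change. CYP26A1, CYP26B1, CYP1B1 and EDN2 lie far below the line and CDC20B and ADM close to it. CDC20B and FOXN4 passed the filter only through the 1-day air libraries, so their falls in air were fixed by the filter.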

How the data were processed

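Poly-A selected RNA of 24 cultures was sequenced, and the 8 air libraries at 1 day and at recovery were compared. Per the submitters' processing notes the authors used RSEM with Bowtie2 after Trim Galore and FastQC; tool versions, build and annotation were not given in the sources used here. Per gene, the deposited table gives a normalized expression signal for each library, here termed the normalized count. Its values are not whole numbers and whole reads could not be recovered, so tests for counts were not used and the read depth is not known. The error given is the SE from limma, which pulls each gene's spread between animals towards a trend over all genes tested. This SE can be smaller or larger than an SE from the animal changes of that gene alone.

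Values were analysed as log2(value + 1), which understates changes of low genes. Genes with a value of 10 or more in at least 4 of the 8 libraries were tested, two-sided, with limma 3.58.1 in R 4.3.3 (trend, animal as an additive block), and called at a Benjamini-Hochberg adjusted p under 0.05 over 13244 genes. Every adjusted p and SE is from limma. The numbers S1 to S4 mark the same animal in the labels. Deviations from group means correlated at 0.63 to 0.73 within animals and at -0.37 to -0.01 between animals. As the deviations in each group sum to 0, positive values within animals push those between animals below 0. Smoke cultures were fitted the same way, and the difference of the changes over 16 libraries. The scripts were checked on simulated data.

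Members and lists were chosen with earlier results of these data known. The 55 lists are described by counts and medians. Genes were named by rule: the 15 largest changes each way with a symbol, a mean of at least 50 and 4 of 4 animals one way, up to 4 members of each list with the smallest p, 18 genes always given and the 5 largest differences each way. Of the 245 genes this named, those described are printed, and a few items are not reported here. MCIDAS, SPRR3, AREG, CXCL8, HSPA5, ALDH1A1, ALDH1A3, DNAH5 and PTTG1 were outside the rule and chosen after their values were seen. Alternatives to the block, scaling, pseudocount, filter, trend and threshold were tried, and each animal was left out in turn.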

Additional observations from a re-analysis of the deposited data

Results flagged for a closer look

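In 32 of 276 sets of 4 values (138 genes named above, at 1 day and at recovery in air), 1 library lay apart from the other 3 by Dixon's criterion. The criterion is set to flag about 1 group in 20 among independent, normally distributed values. The values here were not log-transformed and the sets share libraries, so the 32 cannot be read against that rate. In the S1 library at 1 day, PIGR was at 37826 (others 4308 to 8004), SCGB3A1 was at 404 (others 2.89 to 40.1) and CXCL8 was at 172 (others 1.86 to 18.8). For that library too, IGF2 was at 27.1 (others 124 to 141). In the S1 library at recovery, SCGB3A1 was at 159.9 (others 4.54 to 26.5), TP63 was at 669 (others 586 to 598) and CXCL8 was at 338 (others 9.32 to 36.2). Also in that library, CAPN14 was at 409.8 (others 32.5 to 78.9). In the S2 library at 1 day, SRSF5 was at 1566 (others 1751 to 1773), FLNA was at 7175 (others 6104 to 6280) and SQLE was at 1228 (others 729 to 766). In the same library COL17A1 was at 9874 (others 3711 to 4686), GATA3 was at 87.0 (others 18.1 to 27.3) and ADM was at 305 (others 61.4 to 83.0). In the S2 library at recovery, HSPB1 was at 1224 (others 1113 to 1122), ALDOC was at 4215 (others 1688 to 2025) and SQLE was at 1916 (others 1360 to 1437). In the same library HMGCS1 was at 5205 (others 3466 to 3590), LTBP1 was at 1429 (others 379 to 508) and IL1RN was at 942 (others 431 to 498). Again in that library, VEGFA was at 3483 (others 2021 to 2060) and PLAT was at 2023 (others 156 to 428). In the S3 library at recovery, EIF4A2 was at 3234 (others 2529 to 2635) and PTTG1 was at 243 (others 113 to 135). In the S4 library at 1 day, COL10A1 was at 453 (others 7.75 to 43.5), SLCO1A2 was at 2433 (others 221 to 493) and SCGB2A1 was at 470.1 (others 56.5 to 89.1). In the same library TJP1 was at 1972 (others 1704 to 1741). In the S4 library at recovery, COL10A1 was at 88.3 (others 0 to 1.09), SLCO1A2 was at 879 (others 15.4 to 154) and SFTPA1 was at 224 (others 0.984 to 30.7). In the same library SCGB2A1 was at 146 (others 21.1 to 35.5). None of the 4 library measures was apart in this way.

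The change between 1 day and recovery differed between smoke and air for 50 of the 138 genes named (limma, 16 libraries, adjusted p under 0.05). These differences, smoke minus air on the log2 scale, share the air libraries with the changes described above. The change was higher in smoke for TMEM26 1.99, CRELD2 1.41, HSPA5 1.01, SCGB2A1 0.87, GASK1B 0.82, HYOU1 0.73, BTG2 0.64 and EIF4A2 0.54. It was also higher for HES1 0.54, HSP90AA1 0.41 and GRHL2 0.39. The largest negative differences were those of CYP1B1 -2.75, CYP26B1 -2.75, EDN2 -2.58, EGR2 -2.37, GATA3 -2.31, CYP26A1 -2.07, SLC7A5 -1.64 and EGR1 -1.57. Next in size were TFCP2L1 -1.56, RARB -1.46, DSG3 -1.37, KRT5 -1.19, NR1D1 -1.14, TGM1 -1.13, NGFR -1.09, SLC2A3 -1.08 and BHLHE40 -0.99. These were followed by PER3 -0.98, COL17A1 -0.95, LAMA3 -0.95, SRSF5 -0.86, DSC2 -0.86, MMP28 -0.84, PLAUR -0.84, ANGPTL4 -0.77 and DNAJB1 -0.70. Smaller ones were FLNA -0.66, SRSF6 -0.64, HMGCS1 -0.59, TXNRD1 -0.55, TMPRSS2 -0.50, TJP1 -0.50, ERRFI1 -0.49 and S100A2 -0.49. The smallest were SQLE -0.47, CDKN1A -0.42, TSC22D3 -0.35, PGD -0.35 and EZR -0.28.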

How the results depend on the processing

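Without the replicate block 834 genes passed in air (372 higher, 462 lower), 836 in smoke (370 and 466) and 69 for the difference between smoke and air (31 and 38). With all 24 libraries and the block, 1820 passed in air (925 and 895), against 4253 once the 5-day air library of S1 was left out, and 177 for the difference (65 and 112). Without the trend 2417 passed in air (1179 higher), and with a log2 change of at least 1 required 498 (221 and 277). Equal library totals gave 1249 higher genes of 3642. Leaving out each animal in turn gave 2100 to 3121 genes in air (1122 to 1539 higher, 966 to 1582 lower), 1128 to 3822 in smoke (532 to 1932 and 596 to 1890) and 201 to 1374 for the difference (71 to 604 and 130 to 770), and the lowest of each was without S3 or S4 (the cause was not tested). The other alternatives kept the air count within 1.5 times. Of 138 genes named 125 passed in air, and 121 of them passed in every omission of an animal, the others being SEC14L3, TP63, PDGFRA and COL1A1. Among these omissions DNAH5 and TMEM26 passed only without S1, and KRT5 and SCGB3A1 only without S4. Of the changes not past the test, 5 turned sign when an animal was left out: MUC5B (-2.21 to 0.062, positive without S2), DNAH5 (-0.57 to 0.031, positive without S2), PTTG1 (-0.29 to 0.14, positive without S1), DBP (-0.15 to 0.16, positive without S1 or S4) and FOXJ1 (-0.12 to 0.24, negative without S1 or S4). Without the block 61 of the named calls in air no longer passed and none changed sign. Among the 61 were COL17A1, TGM1, PLAT, GATA3, EDN2, VEGFA, HMGCS1, DHRS9, SOX9, VMO1, PIGR and CLCA1. With the animal as a random block 7 were lost (SFTPA1, CES1, PIGR, CDKN1A, ALDOC, MX1 and DNAI1). Without the trend 6 were lost (SEC14L3, VMO1, TP63, PDGFRA, ALDOC and DNAI1). The read depth is not known, so counting error is not given, and 4 animals limit every test.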
